A study of Mus musculus with 2 samples.

Results

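The Id and Smad genes that carry and restrain bone morphogenetic protein (BMP) signals were compared in mouse embryonic fibroblasts (MEFs), cells of connective tissue cultured from embryos, labelled LATS2-/- or LATS2+/+ for the Hippo pathway kinase Lats2. The members were 10 genes chosen by name: Id1, Id2, Id3 and Id4, the inhibitory Smad6 and Smad7, and the signal-transducing Smad1, Smad3, Smad5 and Smad9. They were represented by 19 of the 41174 gene probes of the array, and by 10 of its 27745 gene names. Both groups came from C57BL/6J mice, and no treatment was applied to either. The knockout (KO) is written LATS2-/- in the titles and LAT2-/- in the genotype field. The age of the embryos, the number of embryos behind each RNA and the removed part of the gene are not given in the sources used here. Each RNA was labelled with Cy5 or Cy3 and both were hybridised together on an oligonucleotide array that covers the mouse genome. One array carried the KO RNA in Cy5 and the other carried it in Cy3. Nothing in the labels names separate RNA preparations, so these 2 arrays were taken as a dye swap of 1 pair of RNAs and counted as 1 replicate. All errors below are therefore those of hybridisation and dye, and no test between genotypes was possible.

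BMPs bind paired serine/threonine kinase receptors that phosphorylate Smad1, Smad5 and Smad9, whereas TGF-beta and activin receptors act through Smad3 and its close relative. Activated Smads enter the nucleus with a shared partner and switch on target genes, of which the Id genes are the best known for BMP. Id proteins have a helix-loop-helix domain but no basic DNA-binding region, so they trap basic helix-loop-helix (bHLH) factors in inactive pairs and hold back differentiation. Smad6 and Smad7 are also induced by the signal and feed back on it, Smad6 mainly on the BMP branch and Smad7 on both branches.

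Values are log2 ratios of the RNA labelled KO over the RNA labelled WT, given as the mean of the arrays after background correction, loess and turning of the swapped array. Pearson's r between the arrays was 0.899 over 40875 probes, a correlation across probes, which are not replicates. One probe varied between arrays with an SD of 0.133. When probes were divided by brightness into 10 groups, this SD ranged from 0.121 to 0.146. The intervals below are the mean ± 1.96 times the SD of a mean of both arrays in the probe's own brightness group. A difference is called beyond the spread when its interval leaves out 0 and both arrays have the same sign. A gene was called when its ratio reached 2-fold on each array, the same way, and its probe was well above background on both arrays in the genotype where it was higher. Where a gene had several probes, the brightest stood for it. Median raw signals were 96.8 and 98.5 units in Cy5 and 60.1 and 58.2 in Cy3, and no spot was saturated.

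The targeted gene was read first, and its probes did not all run one way. Lats2, on chromosome 14 (mm8), has 4 probes. Of these, 3 gave positive ratios of 0.56 to 0.63, against the label, and 1 followed the label at -0.35 (-0.18 and -0.51 on the single arrays). None was called. The study examined the Lats2 protein of its MEFs by western blotting, which is not analysed here. A probe outside the removed part of the gene checks nothing, and that part is not known here. Hence the samples are named by their labels only, as RNA labelled KO or WT, and so is each direction. Fibroblast markers were detected, and so were some markers of other cell types. Of 11 measured fibroblast markers, 10 were well above background on both arrays in the RNA labelled KO and 11 in the RNA labelled WT. Their summed signals were 122665 and 145911 units, their median ratio was -0.36, and 0 were called. Of 8 endothelial markers, 1 and 0 were so, and Pecam1, Cdh5 and Kdr did not pass the background flag in either RNA. The summed signal of the endothelial list was 551 units in the RNA labelled KO and 543 in the RNA labelled WT. All sums here include an offset of 50 units for each gene, so those of dim markers do not measure expression alone. For 7 macrophage markers the counts were 3 and 3 and the sums 604 and 793 units, with Ptprc, Adgre1, Fcgr1 and Aif1 not well above background. One macrophage marker was called, Cd14, at -1.05 (174 units in the RNA labelled KO and 361 in the RNA labelled WT). Of 7 neural markers 5 passed in each RNA, with sums of 2557 and 3655 units. Map2 was the lowest of them at -0.95, and Sox2 and Gfap did not pass. Of 8 bone and cartilage markers 4 passed in each RNA, with sums of 3896 and 4501 units. Of 7 skeletal muscle markers only Acta1 passed, at 11405 and 9499 units, and Myog, Myf5 and Des did not. Of 7 epithelial markers 2 passed in each RNA, with sums of 508 and 520 units, and Epcam and Cdh1 did not. The part of these cell types in the members' values was not tested. In RNA from whole cultures, fewer cells of a type and less RNA per cell cannot be told apart.

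Among the members, Id1 and Id4 stood just over 2-fold above the RNA labelled WT, and both were called. Smad7 was higher by about the same amount but reached 2-fold on 1 array only. Id3, Smad1 and Smad5 were lower by less than 2-fold, and Smad3 was slightly higher. The values of Id2, Smad6 and Smad9 lay within the spread. In all, 2 of the 10 members were called higher and 0 lower, beside 2.95% of the 15877 genes well above background called higher and 2.61% called lower (5.56% in either direction). Beyond the spread were 4 members on the higher side and 3 on the lower side, beside 27.4% and 28.6% of those genes. The median over all 10 members was 0.01, and that over the 15877 genes was -0.0037.

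**Figure D1:**
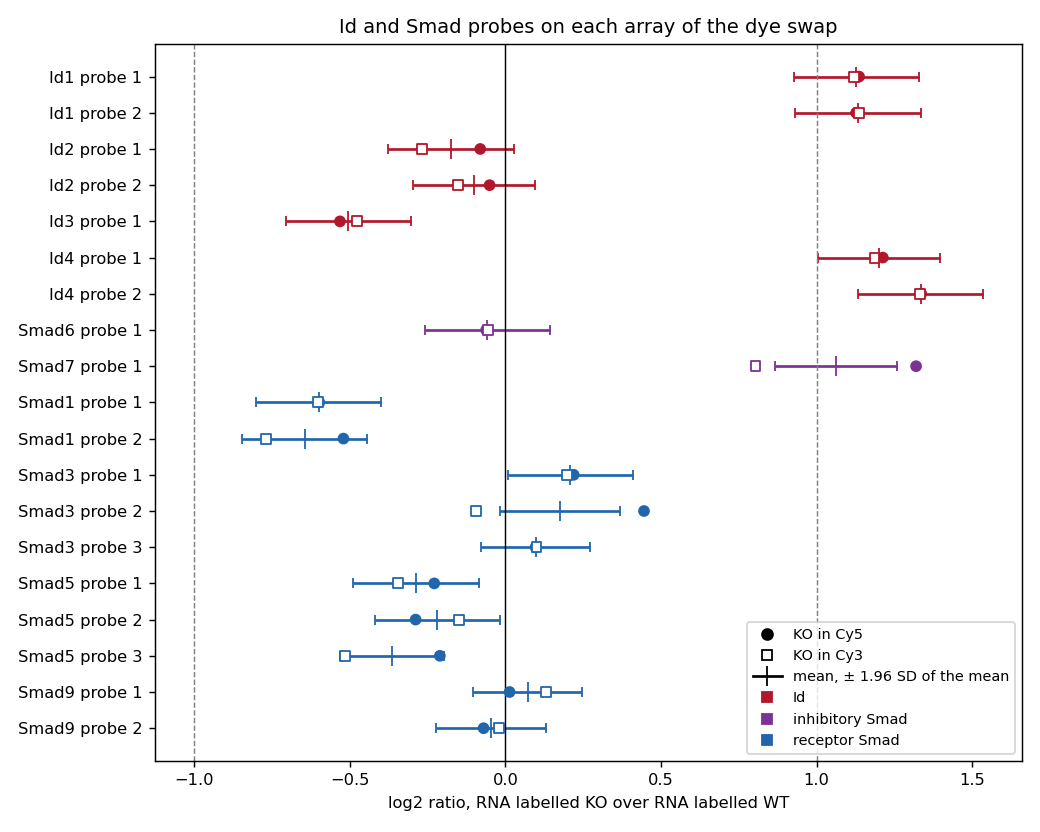
Log2 ratio of the RNA labelled KO over the RNA labelled WT (x axis) for each of the 19 probes (y axis, the brightest probe of a gene first). Circles and squares are the arrays with KO in Cy5 and in Cy3, ticks with bars are the mean ± 1.96 SD of the mean, and dashed lines mark 2-fold. Both Id1 probes and both Id4 probes lie above 1 on each array, whereas the Smad7 squares and circles lie at 0.80 and 1.32.

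Id1 is the Id gene most used as a readout of BMP activity. Its brightest probe lies on chromosome 2 at 152428741 to 152428800 (mm8). On the array with KO in Cy5 its signal was 7522 units in the RNA labelled KO and 3422 in the RNA labelled WT. On the array with KO in Cy3 the signals were 6803 and 3131 units. The RNA labelled KO was thus the higher on each array. The log2 ratio was 1.14 and 1.12 on the single arrays and 1.13 on average (interval 0.93 to 1.33), or 2.19-fold. A second Id1 probe starts at 152428751, shares 50 bases with the first and gave 1.13, so it is a repeat of the measurement and not a separate site. Of the 15877 genes, 432 (2.72%) had a higher mean ratio than Id1.

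Id4, which is known for roles in neural and bone precursors, had the highest ratio of the members. Its brightest probe lies on chromosome 13 at 48275236 to 48275295. Its signals were 2743 units in the RNA labelled KO and 1184 in the RNA labelled WT with KO in Cy5, and 2702 and 1188 units with KO in Cy3. The RNA labelled KO was the higher on each array. The ratio was 1.20 (interval 1.003 to 1.40; 1.21 and 1.19 on the single arrays), or 2.30-fold. The other Id4 probe, at 48275748 to 48275807, does not overlap the first and gave 1.33 (1.34 and 1.33). Thus Id4 was called at both of its separate sites.

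Id3, which often accompanies Id1 among BMP target genes, went the other way. Its only probe spans positions 135416236 to 135416410 of chromosome 4, a stretch of 175 bases, longer than the probe itself. Its signals were 6821 and 6843 units in the RNA labelled KO and 9862 and 9528 in the RNA labelled WT. The ratio was -0.50 (interval -0.71 to -0.30; -0.53 and -0.48), which puts the RNA labelled KO at 70.5% of the RNA labelled WT. Id3 did not reach 2-fold on either array.

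Id2, an Id gene with wide expression in connective tissue, had signals of 4221 and 3921 units in the RNA labelled KO and 4465 and 4726 in the RNA labelled WT. Its ratio was -0.18 (interval -0.38 to 0.03; -0.08 and -0.27), and its second probe gave -0.10. Both probes lie on chromosome 12, and both intervals include 0. The Id genes therefore split. The ratio of Id1 exceeded that of Id3 by 1.63 (interval 1.35 to 1.92), and that of Id4 exceeded it by 1.70 (1.42 to 1.99). Id1 and Id4 differed from each other by 0.07, with an interval for Id1 minus Id4 from -0.35 to 0.21. Id2 minus Id3 was 0.33 (0.04 to 0.61). These intervals cover array error only.

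**Figure D2:**
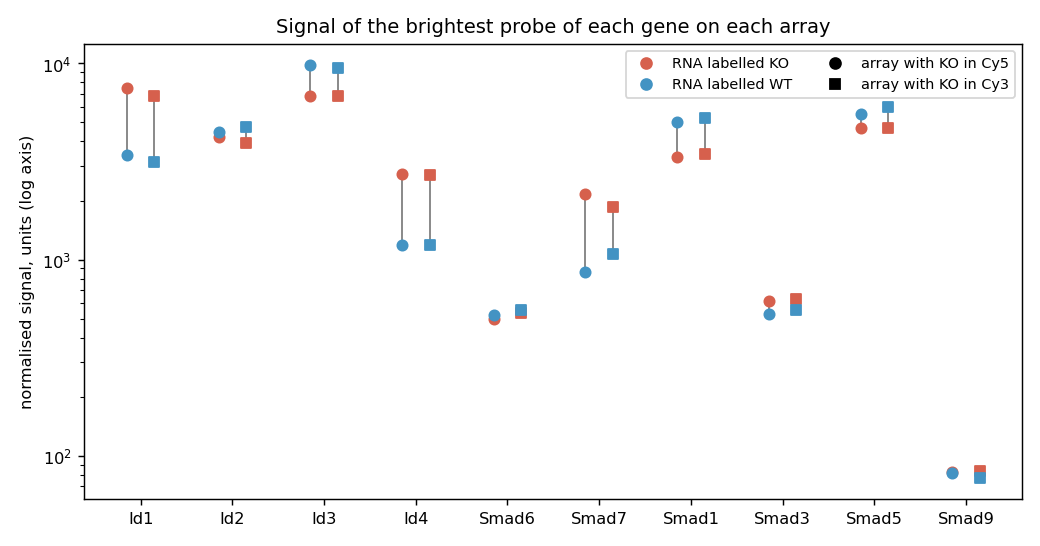
Normalised signal in units on a log axis (y) of the brightest probe of each gene (x) in the RNA labelled KO (red) and the RNA labelled WT (blue), with circles for the array with KO in Cy5 and squares for that with KO in Cy3. Signals can be compared within a gene only, since probes differ in binding. For Id1, Id4, Smad7, Smad3 and Smad9 both red points lie above both blue points, and for Id2, Id3, Smad1 and Smad5 both lie below. Only the points of Smad6 overlap. The share of all genes that separate this way was not counted, and Id2 and Smad9 lie within the spread.

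Promoter sequence is shown for the Id genes because members of this family moved in different directions. The set of RefSeq promoters used here (GRCm38.p6) held 8 of the 10 members, with Id1 and Smad7 not matched. This set did not cover every chromosome, so a gene outside the chromosomes covered could not be matched. The absence of Id1 and Smad7 from this set does not show that RefSeq lacks them, and the full annotation was not searched. Each line holds the 250 bases before the annotated start, 5′ to 3′ on the gene's strand. Capitals mark GTCT or its reverse complement AGAC, the short box bound by Smad3-type Smads, and GGCGCC, a GC-rich box described for BMP Smads. The regions are chr13:48260866-48261115 (plus strand) for Id4, chr4:136143572-136143821 (plus strand) for Id3 and chr12:25096093-25096342 (minus strand) for Id2.
Id4: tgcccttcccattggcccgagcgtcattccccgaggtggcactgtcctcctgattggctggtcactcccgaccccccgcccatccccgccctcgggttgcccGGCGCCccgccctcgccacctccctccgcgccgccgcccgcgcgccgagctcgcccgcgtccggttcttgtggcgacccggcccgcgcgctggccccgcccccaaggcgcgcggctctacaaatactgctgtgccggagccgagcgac
Id3: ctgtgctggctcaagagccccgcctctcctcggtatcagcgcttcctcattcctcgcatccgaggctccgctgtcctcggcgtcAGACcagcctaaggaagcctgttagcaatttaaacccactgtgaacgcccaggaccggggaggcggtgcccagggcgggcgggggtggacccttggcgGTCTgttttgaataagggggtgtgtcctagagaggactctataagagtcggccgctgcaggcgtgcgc
Id2: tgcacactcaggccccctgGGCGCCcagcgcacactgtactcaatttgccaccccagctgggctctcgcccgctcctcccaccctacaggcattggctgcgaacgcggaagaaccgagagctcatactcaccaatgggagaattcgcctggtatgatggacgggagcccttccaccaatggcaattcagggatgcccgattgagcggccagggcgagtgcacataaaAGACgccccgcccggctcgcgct
The Id4 stretch held 1 GGCGCC and 0 GTCT, that of Id3 0 and 2, and that of Id2 1 of each. Over the 32851 promoters of this length in the set used, searched on both strands, 82.9% held GTCT and 9.59% held GGCGCC. These matches describe the letters of the window only.

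Smad6, the inhibitory Smad closest to the BMP branch, had a ratio within the spread. Its probe (chromosome 9, 63751577 to 63751636) had signals of 497 and 531 units in the RNA labelled KO and 519 and 551 in the RNA labelled WT. The ratio was -0.06 (interval -0.26 to 0.14; -0.06 on both arrays). The start of Smad6 carries the palindrome GTCTAGAC, the 8-base Smad box formed by GTCT and AGAC head to head, which is why it is shown here in 30 bases of chr9:64022045-64022074 (GRCm38.p6, minus strand), with the palindrome in capitals.
Smad6: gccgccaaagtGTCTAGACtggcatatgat
The palindrome runs from position -4 to position 4 around the annotated start. It was found in 0.213% of windows of 300 bases in the same set of promoters, counting from 250 before the start. The presence of these letters says nothing on the activity of the site in these cells.

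Smad7 is the inhibitory Smad that acts on both branches. Its probe lies on chromosome 18 at 75521082 to 75521141. With KO in Cy5 its signals were 2151 units in the RNA labelled KO and 862 in the RNA labelled WT, and with KO in Cy3 they were 1854 and 1062 units. The RNA labelled KO was the higher on each array, but the arrays differed in the size of the gap. The ratio was 1.32 on the first array and 0.80 on the other, with a mean of 1.06 (interval 0.87 to 1.26), or 2.09-fold. The gap of 0.52 between the arrays was wider than that of 98.6% of probes of like brightness. Smad7 was higher on both arrays and beyond the spread, and was not called because the array with KO in Cy3 fell short of 2-fold. On the array with KO in Cy5 alone it would be called. Smad6 minus Smad7 was -1.12 (interval -1.40 to -0.84).

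Of the signal-transducing Smads of the BMP branch, Smad1 and Smad5 were below the RNA labelled WT, and Smad9 was within the spread. Smad1 had signals of 3337 and 3463 units in the RNA labelled KO and 5051 and 5259 in the RNA labelled WT at its brightest probe (chromosome 8, 82235591 to 82235647). Its ratio was -0.60 (interval -0.80 to -0.40; -0.60 on both arrays), or 66.0% of the RNA labelled WT. The second Smad1 probe, at 82235188 to 82235247, gave -0.65 (-0.52 and -0.77). Both sites agree within the error of a probe, and neither reached 2-fold.

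Smad5, which acts alongside Smad1, was lower by a smaller amount. Its brightest probe (chromosome 13, 56751818 to 56751877) had signals of 4690 units on both arrays in the RNA labelled KO and of 5496 and 5963 in the RNA labelled WT. The ratio was -0.29 (interval -0.49 to -0.09; -0.23 and -0.35), or 81.9%. The other probes, at 56748833 and 56747265, gave -0.22 (-0.29 and -0.15) and -0.36 (-0.21 and -0.52). All 3 Smad5 probes were below 0 on each array. Smad1 minus Smad5 was -0.31 (interval -0.60 to -0.03).

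Smad9, formerly called Smad8 and the remaining Smad of the BMP branch, was close to background. At its brighter probe (chromosome 3, 54877153 to 54877212) the signals were 82.1 and 83.8 units in the RNA labelled KO and 81.4 and 76.6 in the RNA labelled WT, an offset of 50 units included. The RNA labelled WT passed the background flag on only 1 array, and the ratio was 0.07 (interval -0.10 to 0.25). The other probe, which spans 54874210 to 54877139, was not well above background in either RNA on either array, so no difference could be detected for Smad9 at this signal.

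Smad3 carries the TGF-beta and activin signal. At its brightest probe (chromosome 9, 63445330 to 63445389) the signals were 617 and 633 units in the RNA labelled KO and 530 and 552 in the RNA labelled WT. The ratio was 0.21 (interval 0.01 to 0.41; 0.22 and 0.20), and just beyond the spread. A dimmer probe at 63447691 to 63447750 gave 0.10 (interval -0.08 to 0.27). The remaining probe, designed on an expressed sequence tag without a position in the files, gave 0.45 and -0.10 on the single arrays, a gap wider than that of 99.2% of probes of like brightness. It was the only one of the 19 member probes whose sign differed between the arrays. Smad1 minus Smad3 was -0.81 (interval -1.09 to -0.52).

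Different probes of a member gave like ratios. Over the 7 members with several probes, the widest range was 0.14, for Smad5. Among 5697 genes with several probes well above background, the median range was 0.20, and 38.8% had a range no wider than that of Smad5. Of the 19 probes, 17 were well above background in both RNAs on both arrays.

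**Figure D3:**
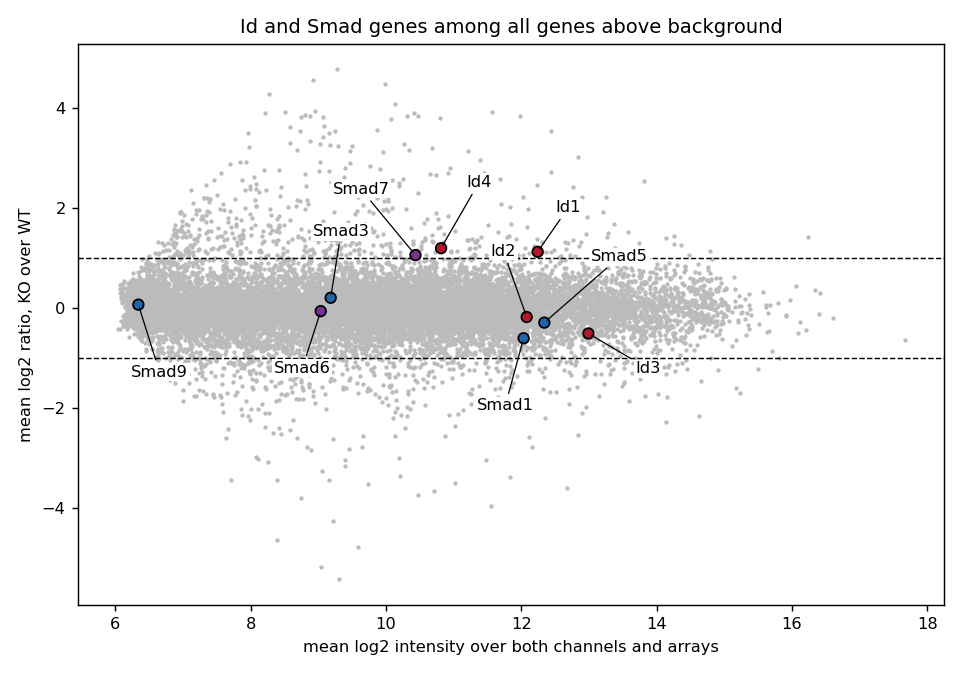
Mean log2 ratio of KO over WT (y) against mean log2 intensity over both channels and arrays (x) for the 15877 genes well above background (grey), with the 10 members coloured by family (red for Id, purple for inhibitory Smads, blue for signal-transducing Smads) and dashed lines at 2-fold. Id1, Id4 and Smad7 lie at the upper line, within the upper 3.02% of genes by ratio, and the other members lie between -0.60 and 0.21.

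The outermost of the ligands upstream of the members differed by more than any member did. Of 30 listed BMP and TGF-beta ligands with a probe, 18 were well above background, and 2 were called higher and 1 lower. Bmp4, a ligand that activates Smad1 and Smad5, had 1910 units in the RNA labelled KO and 372 in the RNA labelled WT on average. Its ratio was 2.36 (2.34 and 2.38 on the single arrays), or 5.14-fold. Tgfb2, a ligand of the TGF-beta branch, was at 1.24 (1.22 and 1.26). Bmp3, an atypical BMP that opposes the others, was 9.56-fold lower, at -3.26 (-3.23 and -3.29). The median of the ligands above background was 0.08.

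The receptors were less spread. None of the 14 above background was called, at a median of -0.27. Beyond the spread, 3 were higher and 8 lower. The lowest was Tgfbr1, the type I TGF-beta receptor, at -0.78, and the highest Tgfbr2, the type II receptor of the same ligands, at 0.70. Other probes of these genes gave 0.07 for Tgfbr1 and -0.08 for Tgfbr2. Among the BMP receptors, Bmpr1a was at -0.46 (other probe -0.34), Bmpr2 at -0.28 (highest probe 0.14) and the dim Bmpr1b at 0.22. These receptors were picked with their values known.

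Genes listed as antagonists, not all of which bind ligands outside the cell, were called in both directions. Of 20 above background, 2 were called higher and 2 lower, at a median of 0.04. Fst (follistatin, which traps activins) was at 1.30 and Crim1, a membrane protein that binds BMPs, at 1.30. Chrdl1, a BMP antagonist of the chordin family, was at -2.13, and Fstl1, a secreted follistatin-like protein, at -1.60. Other probes of Chrdl1 reached 0.02, whereas both Crim1 probes were higher, the lower of them at 0.95. Among 25 regulators that act on Smads inside the cell, 1 was called higher, Hipk2 (a nuclear kinase, 1.37, with its lowest probe at 0.19), and 1 lower, Ctdsp2 (a phosphatase that acts on Smads, -1.24).

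**Figure D4:**
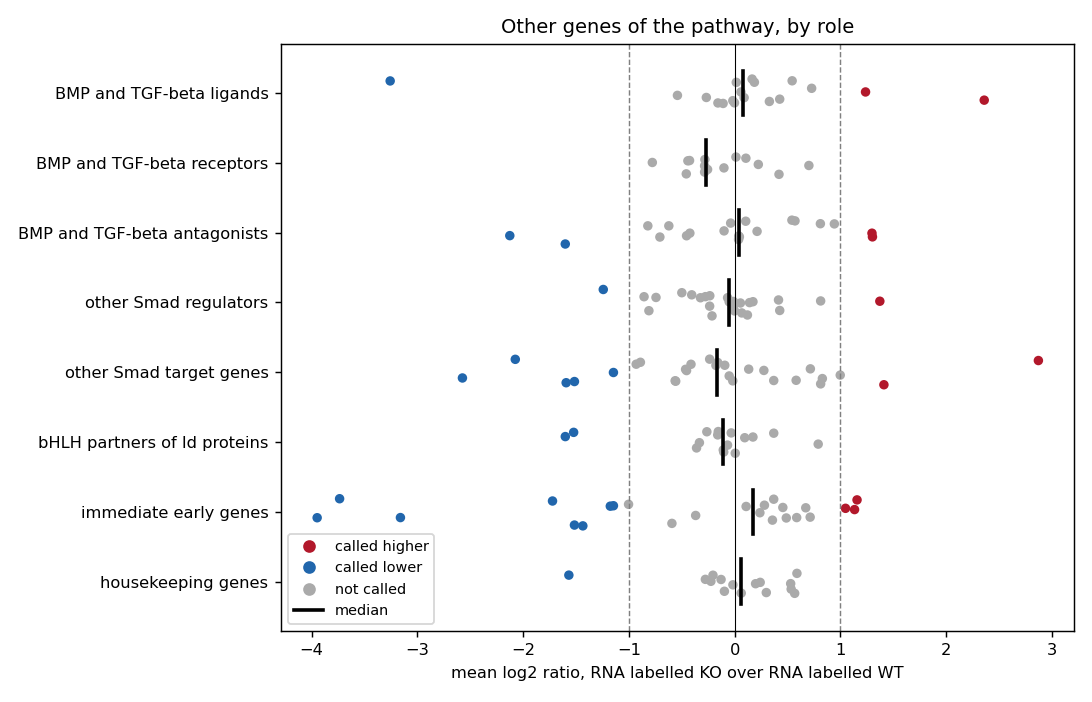
Mean log2 ratio of KO over WT (x) of listed genes well above background, by role (y), with called genes in red (higher) or blue (lower), uncalled genes in grey, list medians as black bars and dashed lines at 2-fold. Bmp4 at 2.36 and Bmp3 at -3.26 are the outermost ligands, and no receptor is coloured.

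Other known targets of Smads did not move as one. Of 28 above background, 2 were called higher and 5 lower, at a median of -0.17. Gata3, a transcription factor, was at 2.87. Tnfrsf11b (osteoprotegerin) was at -2.57, Msx1, a homeobox gene induced by BMP, at -2.07, the matrix protein gene Tgfbi at -1.59 and the AP-1 gene Junb at -1.51. Atoh8, a BMP target, was at 0.83 and Smurf1, a ubiquitin ligase that removes Smad1 and Smad5, at 0.81 (other probe 0.36). Neither was called, and both were picked with their values known. Thus the listed Smad targets stood on both sides, as did the Id genes themselves. The list does not separate targets of the BMP branch from those of the TGF-beta branch.

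The bHLH factors that Id proteins can hold or oppose were mostly near or below 0. Of 16 above background, 0 were called higher and 2 lower, at a median of -0.10. Tcf4, an E protein that pairs directly with Id proteins, was at -1.60 (-1.58 and -1.62), with its highest probe at -0.21. Scx, the tendon factor scleraxis, was at -1.52 (-1.54 and -1.51). Beyond the spread, 2 were higher and 5 lower. The higher ones were Hey1 at 0.37 and the dim Hey2 at 0.79. The E proteins Tcf3 and Tcf12 were at -0.10 and -0.33. All of these uncalled genes were picked with their values known.

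Id genes are also induced early by serum in fibroblasts, so immediate early genes were read beside them. Of 24 above background, 3 were called higher and 8 lower, at a median of 0.17. Egr1 was at -3.95, Fos at -3.73, Fosb at -3.16 and Ier2 at -1.72. Junb is in this list as well as among the targets. Maff was at 1.16, Ier3 at 1.13 and Nr4a1 at 1.05. The part of serum response in the Id values was not tested. Among 15 housekeeping genes the median was 0.06, and 1 was called, Ywhaz, at -1.57 (other probes up to -0.04). They were not flat, since 6 were higher and 4 lower beyond the spread, beside 27.4% and 28.6% of the 15877 genes. The highest was Gapdh at 0.59, a size like that of the uncalled differences of Id3 and Smad1.

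**Figure D5:**
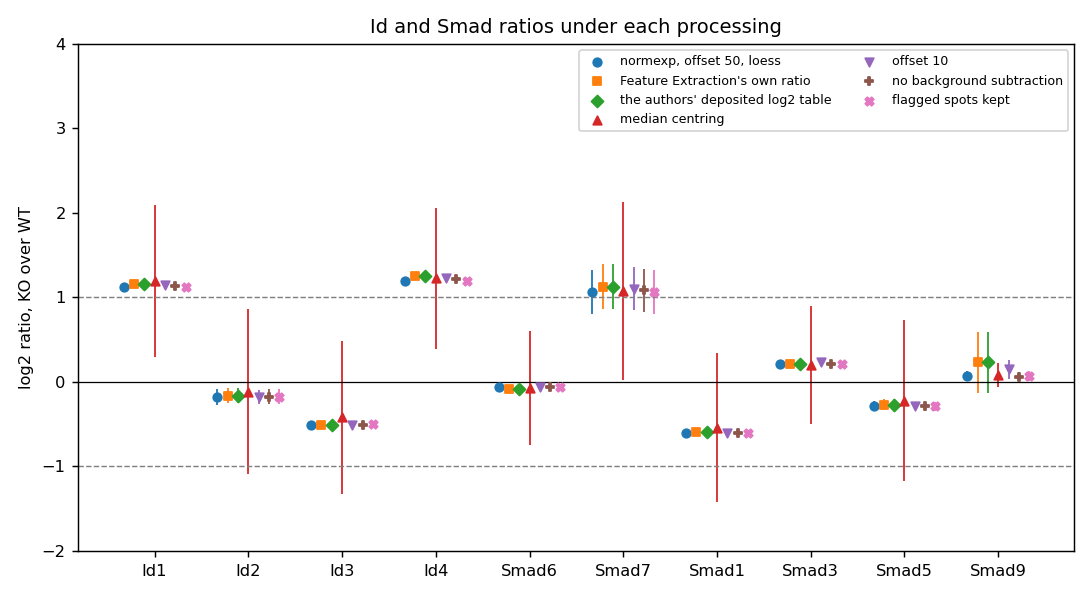
Log2 ratio of KO over WT (y) of each member (x) under 7 ways of processing the same spots. Symbols are means of both arrays and vertical lines join the single arrays, with dashed lines at 2-fold. Means barely move between settings, and the long red lines show that median centring leaves the arrays far apart, as for Id1 at 2.10 and 0.29.

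The members' mean ratios changed little with the processing. Id1 lay between 1.12 and 1.19 and Id4 between 1.19 and 1.27 over 9 alternatives. Id3 lay between -0.53 and -0.42 and Smad1 between -0.62 and -0.54. Smad7 ranged from 0.80 to 1.32, both ends being single arrays. With median centring in place of loess 0 of the members were called, since no member then reached 2-fold the same way on each array.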

How the data were processed

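RNA of LATS2-/- and LATS2+/+ MEFs was measured on 2 two-colour arrays with the dyes exchanged. The authors scanned the arrays and deposited spot tables made with Agilent Feature Extraction 10.5.1.1. The mean signal and median local background of each spot in these deposited tables are intensity in arbitrary units, and the same deposited tables hold a log10 ratio of Cy5 over Cy3 after the software's own background and dye correction. The authors also deposited log2 ratios per probe, already turned to KO over WT. These equalled the spot ratio to within 0.01 for 87.0% and 80.5% of probes, and their column medians were -0.018 and 0.037. Probe positions are on mm8, per the file headers.

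Background was corrected by normexp with an offset of 50, and dyes by loess within each array, in limma 3.58.1 (R 4.3.3). The offset pulls ratios of dim probes towards 0. Control spots (1639 of 45018 an array) and flagged spots (390 and 378) were dropped once background had been corrected. The flag of Feature Extraction decided which probes were well above background. Printed signals are channel values after loess and Aquantile scaling. Python 3.11.15 (pandas 2.3.3, numpy 2.4.6, matplotlib 3.10.9) did the counting and plotting.

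The study's methods set the threshold of 2-fold. The members and gene lists were chosen with earlier results of these data known. The genes named from the lists are those called, at most the 4 largest in each direction. Some uncalled genes are named as well, picked with their values known. One called gene of the lists is not reported here. Listed genes were matched through RefSeq names (GRCm38.p6), which were found for 24496 of the 41174 probes. The other probes kept the name in the files. Normalisation and calling were first tested on simulated data. With 1 replicate a genotype no test was made. Tests on the 2 arrays (limma and the methods' t-test) were run as alternatives and see hybridisation error only. The number of arrays limits the precision.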

Additional observations from a re-analysis of the deposited data

How the results depend on the processing

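Of 174 recomputed values, 157 moved by less than the SD of a probe between arrays or, for counts, by no more than 1.5 times, 17 moved by more and 0 reversed. Of the 90 that belong to single members 86 were of the first kind. The other 4 were the single-array values of Smad7 and the dim Smad9, at 0.23 both in the deposited table and with Feature Extraction's ratio, and all 90 had the sign of the reported value. Under 9 alternatives, the lowest and highest values were -0.27 and -0.08 for Id2, -0.08 and -0.06 for Smad6, and 0.16 and 0.23 for Smad3. The alternatives are not independent. The deposited table gave the members the same rounded ratios as Feature Extraction's own, and the single arrays are parts of the mean.

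The members called higher numbered 0 with median centring and 0 with the methods' t-test after Benjamini-Hochberg, against 2 with its unadjusted threshold and 3 with limma, where Smad7 was the third. At 1.5-fold 3 were called higher and 1 lower. Genes called higher and lower numbered 941 and 866 with Feature Extraction's own ratio and also with the deposited table, 250 and 138 with median centring (64.4% higher, against 53.1% with loess), 1118 and 1139 at 1.5-fold, and 0 and 0 with the methods' t-test after Benjamini-Hochberg, whose unadjusted threshold gave 408 and 358. The t-test has few degrees of freedom by construction. Median centring shifts all ratios of an array by the same amount. For this and the other settings the cause of the change was not tested.

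On single arrays the counts ran from 521 to 561 higher and from 466 to 538 lower, and the members called higher from 2 to 3, the array with KO in Cy5 adding Smad7. The median of the Id genes was 0.48 and ran from 0.42 to 0.53, that of the inhibitory Smads was 0.50 and ran from 0.37 to 0.63, and that of the signal-transducing Smads was -0.11 on both. The Id median lies between genes of opposite direction. Among the members, low signal over background limits Smad9. No paired analysis was possible because there is only 1 replicate of each genotype.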
